A study of Mus musculus with 2148 samples.

Results

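The 41 genes described here are the S-phase and mitosis genes named in a fixed list, found by symbol among the 48437 genes of the count table: 15 genes of DNA replication and its control, called S members below, and 26 genes of the passage through G2 and mitosis, called G2/M members. All 41 were found. They were read in single thymic epithelial cells (TECs) of C57BL/6 mice, sorted by flow cytometry as CD45- EpCAM+ cells into 96-well plates and sequenced over the full length of their RNA by RamDA-seq. The sorts were mTEChi (Ly51-, MHC-II high, the mature medullary cells), mTEClo (Ly51-, MHC-II low) and cTEC (Ly51+, the cortical cells). Adult wild-type (WT) cells comprised mTEChi of mice 4, 5 and 6 weeks old, mTEClo of males 4, 5 and 8 weeks old, and cTEC of males 6 weeks old; 1 mTEChi pool of mice 4 weeks old was female and the other adult cells male. Adult cells lacking the autoimmune regulator gene, Aire-KO, comprised mTEChi and mTEClo of males 5 weeks old. Newborn WT cells, 1 day old and of unknown sex, comprised all 3 sorts; cell numbers per group are given with the processing. The labels number no mice, so cells of 1 group, age and sex were summed into 13 pools, and whether a pool holds 1 mouse or several is unknown. p-values over pools or plates therefore measure the spread between these sums, which may be technical. Each of the 5 newborn plates (16 to 20) held all 3 sorts, whereas each adult plate held 1 sort, so that plate and sort cannot be told apart in adults. No plate held cells of both ages or of both genotypes, so neither age nor genotype can be told apart from plate.

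The cell cycle runs from a gap phase through DNA synthesis (S) and a second gap (G2) into mitosis (M), and each step is driven by genes whose messages are made mostly for that step. S genes load and fire the replicative helicase, supply nucleotides and copy chromatin marks, while G2/M genes condense chromosomes, build the spindle and release the sister chromatids. In the thymic medulla, mature cells that express Aire arise from dividing progenitors, and the epithelium of young mice grows by division.

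Depth per cell ranged from 203010 to 1823784 reads with a median of 692880, and the group medians lay between 532926 and 862537. The labels held against the genes that define the sorts. Aire read 1109.7 to 1844.6 counts per 1000000 counted reads (CPM) in the adult WT mTEChi pools, 26.1 in Aire-KO mTEChi and 26.1 to 39.5 in the adult WT mTEClo pools, and the cortical proteasome gene Psmb11 read 732.4 in adult and 915.6 in newborn cTEC against 0.667 to 14.1 in the adult WT mTEC pools. Newborn mTEClo stood apart from their adult counterpart, with Psmb11 at 283.7 CPM. Pool sizes differed, and the adult mTEChi pool of males 5 weeks old held 12 cells, of which 1 carried 5335 CPM of S members and 4642 CPM of G2/M members. Its values are marked below where a result turns on them. A higher sum can come from more cells in cycle or from more message per cell, so both are given.

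The start sites of these genes carry short elements that differ between the 2 classes, and 6 promoters that hold such elements are shown as examples. RefSeq windows from 250 bases before to 50 bases after the start site (assembly GRCm38.p6) were found for 13 of the 15 S members and 23 of the 26 G2/M members. Searched on both strands were the cell cycle homology region (CHR, TTTGAA or TTCGAA), the CCAAT box, and an E2F site (TTTCGCGC, TTTGGCGC, TTTCCCGC, TTTGGCGG or TTTCCCGG). In the sequences below, written in the direction of the gene and covering the 200 bases up to its start site, capitals mark any of these motifs on either strand, and overlapping matches run together.

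Cdk1, the kinase that starts mitosis (chr10:69352913-69353112, minus strand): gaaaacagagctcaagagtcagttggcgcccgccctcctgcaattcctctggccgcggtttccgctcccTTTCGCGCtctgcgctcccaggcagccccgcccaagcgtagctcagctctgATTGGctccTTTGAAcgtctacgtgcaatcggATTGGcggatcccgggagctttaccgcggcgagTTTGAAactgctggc
Top2a, the topoisomerase that untangles sister chromatids (chr11:99024190-99024389, minus strand): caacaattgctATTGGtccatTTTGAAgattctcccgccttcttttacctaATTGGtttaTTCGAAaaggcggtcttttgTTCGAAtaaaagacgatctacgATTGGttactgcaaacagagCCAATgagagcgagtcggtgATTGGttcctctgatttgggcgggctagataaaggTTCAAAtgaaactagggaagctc
Cdc20, the activator of the anaphase-promoting complex (chr4:118437344-118437543, minus strand): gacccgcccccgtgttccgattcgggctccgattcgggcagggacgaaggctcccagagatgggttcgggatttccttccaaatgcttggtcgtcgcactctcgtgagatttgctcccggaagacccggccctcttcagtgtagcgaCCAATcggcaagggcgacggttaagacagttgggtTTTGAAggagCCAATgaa
Mcm6, a subunit of the replicative helicase (chr1:128359706-128359905, minus strand): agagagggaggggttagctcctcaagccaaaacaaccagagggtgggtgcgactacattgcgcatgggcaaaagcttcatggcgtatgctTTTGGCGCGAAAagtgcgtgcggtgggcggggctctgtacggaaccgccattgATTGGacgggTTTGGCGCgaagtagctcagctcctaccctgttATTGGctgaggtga
Mcm5, another subunit of that helicase (chr8:75109309-75109508, plus strand): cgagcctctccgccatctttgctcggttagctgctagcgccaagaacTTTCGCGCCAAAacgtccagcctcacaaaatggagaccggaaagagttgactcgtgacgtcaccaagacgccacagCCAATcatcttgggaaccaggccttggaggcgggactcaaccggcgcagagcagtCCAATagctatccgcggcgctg
Dtl, the ubiquitin ligase receptor that removes the licensing factor Cdt1 in S phase (chr1:191575545-191575744, minus strand): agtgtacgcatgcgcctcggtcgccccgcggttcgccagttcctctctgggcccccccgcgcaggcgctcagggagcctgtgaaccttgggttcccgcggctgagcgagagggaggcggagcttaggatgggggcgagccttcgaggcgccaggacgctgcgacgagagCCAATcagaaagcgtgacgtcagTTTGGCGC

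A CHR stood in 19 of 23 G2/M windows (82.6%) and in 3 of 13 S windows (23.1%), against 21.7% of all 27025 genes with a window. An E2F site stood in 7 of 13 S windows (53.8%) and in 3 of 23 G2/M windows (13.0%), Cdk1 among them, against 4.10% of all genes. The CCAAT box was common to both, in 11 of 13 S windows (84.6%) and 19 of 23 G2/M windows (82.6%), where 41.1% of all genes have one. A CHR together with a CCAAT box, as in Cdk1, Top2a and Cdc20 above, stood in 17 of 23 G2/M windows (73.9%) and in 8.61% of all genes. Among genes outside the 41, 34 of 47 other mitosis genes (72.3%) had a CHR and 16 of 38 other replication genes (42.1%) an E2F site. The S promoters shown, Mcm6, Mcm5 and Dtl, all hold an E2F site, while the windows of Mcm2, Pcna and Rrm2 held none. All of these are matches of letters only and are given as a description.

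In adult WT cells the G2/M members were higher in mTEChi than in mTEClo. The 26 G2/M members summed to 312.5, 895.4, 977.4 and 438.4 CPM in the mTEChi pools of females 4 weeks old and of males 4, 5 and 6 weeks old, and to 37.8, 41.6 and 44.8 CPM in the mTEClo pools of males 4, 5 and 8 weeks old. The 15 S members summed to 245.1, 442.1, 1100.2 and 290.8 CPM in the same mTEChi pools and to 164.9, 185.9 and 248.7 CPM in the mTEClo pools. The G2/M sums did not overlap between the sorts, while the lowest S sum of mTEChi lay just below the highest of mTEClo. The plot of summed levels by plate shows both sums for all groups.

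**Figure D1:**
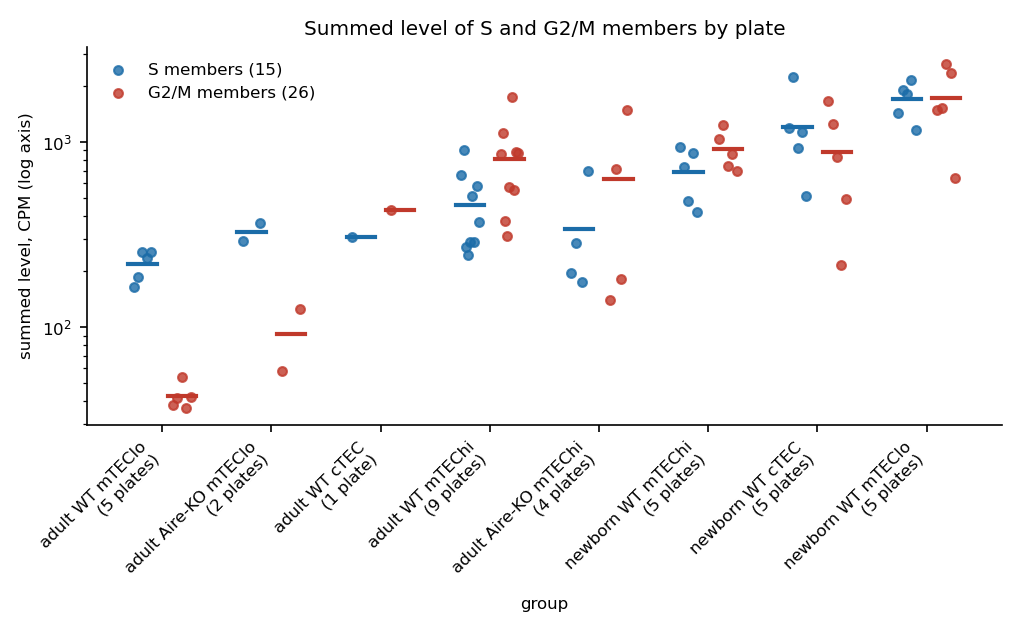
Summed level of the 15 S members (blue) and the 26 G2/M members (red) in CPM on a log axis, 1 point per group and plate, with a bar at the mean over plates. Adult WT mTEClo lie lowest for the G2/M members and newborn mTEClo have the highest mean of both sums.

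Cdk1 showed the pattern in full. It read 11.8, 33.8, 79.2 and 13.3 CPM in the 4 adult mTEChi pools (in the order above) against 0.746, 0.367 and 1.24 CPM in the 3 mTEClo pools. Every mTEChi pool lay above every mTEClo pool, and the log2 difference between sorts was 5.19 (SE 0.90, edgeR quasi-likelihood test with Benjamini-Hochberg adjustment, adjusted p = 0.012, n = 4 and 3 pools). Its partners followed: Ccnb1, the cyclin B that activates it, read 0.763, 5.69, 1.25 and 2.43 CPM in mTEChi and 0.0333 to 0.234 in mTEClo. Ccnb1 was called as well (log2 difference 3.69, SE 1.02, adjusted p = 0.0491), although close to the threshold.

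Of the 26 G2/M members 21 were called higher in adult mTEChi, meaning an adjusted p under 0.05 and a difference of at least 2-fold, while 7.54% of the 39971 genes tested were called higher. None of the 41 was called lower, while 4.13% of all genes were. The median log2 difference was 3.69 over the G2/M members and 0.30 over all genes, and 25 of 26 had an unadjusted p under 0.05, as did 21.6% of all genes. DESeq2 called 6 S and 25 G2/M members (15.3% of genes) and a fit with plates as units 10 and 26 (25.8% of genes). All 4 mTEChi pools lay above all 3 mTEClo pools for 23 of 26 G2/M members, against 20.6% of genes. In the plot of fold changes the filled red points stand for the called members.

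**Figure D2:**
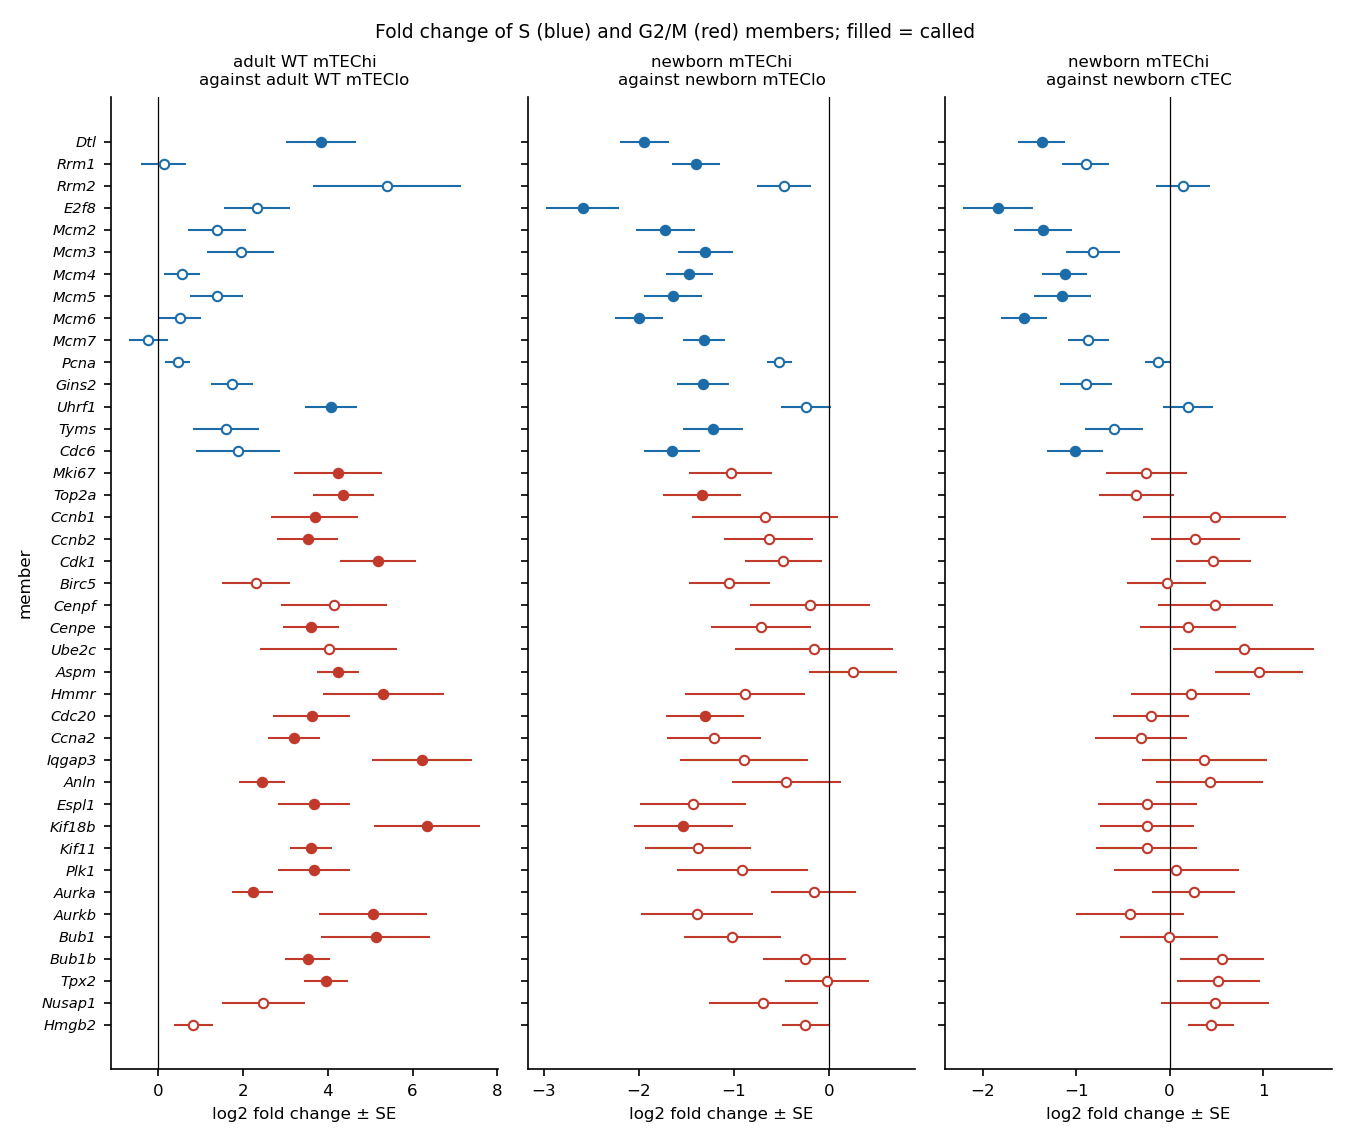
Log2 fold change with its standard error (edgeR) of each S member (blue) and G2/M member (red) in adult mTEChi against mTEClo and in newborn mTEChi against mTEClo and against cTEC, with filled points for called members. In adults 21 of the 26 G2/M members were called higher in mTEChi, and in newborns 12 of the 15 S members were called lower in mTEChi than in mTEClo.

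The 3 largest called differences were those of Kif18b, Iqgap3 and Hmmr. Kif18b, a kinesin that shortens microtubule ends (chromosome 11, 102905529 to 102925124 on GRCm38), read 7.63, 13.6, 17.9 and 3.55 CPM in the mTEChi pools against 0.0426, 0 and 0.249 CPM in the mTEClo pools, which is 2, 0 and 28 reads. All mTEClo pools were close to 0, and the log2 difference was 6.34 (SE 1.26, adjusted p = 0.018). Iqgap3, a scaffold protein of dividing epithelium, read 20.3, 44.3, 40.0 and 12.4 CPM against 0.0426, 0.05 and 0.791 CPM, a log2 difference of 6.22 (SE 1.17, adjusted p = 0.0154). Hmmr, a spindle assembly factor, read 3.50, 21.2, 1.75 and 11.7 CPM against 0.0213, 0.0333 and 0.498 CPM, a difference of 5.31 (SE 1.43, adjusted p = 0.0456). Both were higher in every mTEChi pool, and the mTEClo levels of the 3 genes rest on between 0 and 89 reads per pool. Aspm, a spindle pole protein, had the lowest adjusted p of the members (4.23, SE 0.50, adjusted p = 0.00329).

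The genes that dividing cells are commonly recognised by followed the same order. Mki67, which coats mitotic chromosomes (chromosome 7, 135689784 to 135716361), read 31.4, 153.2, 166.8 and 82.04 CPM in mTEChi and 0.341, 6.04 and 8.00 CPM in mTEClo. Top2a read 22.9, 94.9, 203.2 and 61.1 CPM against 4.39, 4.90 and 2.88 CPM. No mTEChi pool of either gene fell within the mTEClo range, with log2 differences of 4.24 (SE 1.04, adjusted p = 0.0356) and 4.37 (SE 0.72, adjusted p = 0.00996). The mitotic kinase Plk1 read 3.38, 16.9, 33.0 and 5.80 CPM against 0.767, 1.28 and 0.942 CPM (3.67, SE 0.84, adjusted p = 0.0285). Called with them were the Aurora kinases Aurka and Aurkb, the checkpoint kinases Bub1 and Bub1b, Cdc20, separase (Espl1), the cyclins Ccna2 and Ccnb2, the motors Kif11 and Cenpe, the spindle factor Tpx2 and the cytokinesis protein Anln. The 5 that were not called were the kinetochore protein Cenpf (log2 difference 4.15, adjusted p = 0.0613), the ubiquitin-conjugating enzyme Ube2c (4.02, 0.121), the spindle protein Nusap1 (2.48, 0.117), the passenger protein Birc5 (2.30, 0.0892) and the chromatin protein Hmgb2 (0.83, 0.22).

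Of the 15 S members 2 were called higher, with a median log2 difference of 1.61, and 6 of 15 had an unadjusted p under 0.05. Whether the classes differ was not tested. Uhrf1, which carries DNA methylation through replication (chromosome 17, 56303321 to 56323486 on GRCm38), read 65.1, 69.5, 170 and 30.4 CPM in the mTEChi pools and 3.47, 3.77 and 5.50 CPM in the mTEClo pools. Dtl read 6.35, 21.0, 55.6 and 9.32 CPM against 2.13, 1.32 and 0.791 CPM. Both were higher in every mTEChi pool, with log2 differences of 4.07 (SE 0.61, adjusted p = 0.00763) and 3.85 (SE 0.83, adjusted p = 0.0232).

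The next 3 S members had reads in every mTEClo pool, and for each of them the sorts overlapped. The helicase subunit Mcm5 read 15.2, 39.4, 106.3 and 21.6 CPM in mTEChi and 16.2, 12.3 and 16.6 CPM in mTEClo (log2 difference 1.38, SE 0.63, adjusted p = 0.159). Mcm2, of the same ring, read 17.8, 29.6, 108.005 and 14.98 CPM against 12.2, 12.6 and 16.7 CPM (1.39, SE 0.69, adjusted p = 0.184), and without the mTEChi pool of males 5 weeks old its difference was 0.46. The sliding clamp Pcna read 25.6, 30.8, 47.7 and 31.7 CPM against 18.6, 29.2 and 17.2 CPM (0.46, SE 0.29, adjusted p = 0.293). For all 3 genes at least 1 mTEChi pool lay within the mTEClo range, and Mcm7 was the 1 S member with a negative difference (-0.23, SE 0.47, adjusted p = 0.758).

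Both subunits of ribonucleotide reductase, which supplies nucleotides, are S members, and neither was called. Rrm2, the subunit whose message is tied to S phase, read 9.69, 26.8, 88.7 and 10.7 CPM in mTEChi and 0, 0.0167 and 1.81 CPM in mTEClo, of which the first 2 rest on 0 and 1 read. Rrm1, its partner, read 18.0, 46.7, 89.5 and 37.2 CPM in mTEChi and 24.8, 28.996 and 56.6 CPM in mTEClo. Rrm2 did not overlap between sorts yet was not called (log2 difference 5.39, SE 1.74, adjusted p = 0.0727), while the Rrm1 pools overlapped. Cdc6, which loads the helicase, was low in both sorts, at 0.675 to 9.01 CPM in mTEChi and 0.362 to 1.24 CPM in mTEClo (1.88, SE 1.00, adjusted p = 0.21).

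The count of called members depended on single pools. Leaving out 1 pool at a time gave 8 to 21 called G2/M members: 8 without mTEClo of males 5 weeks old, 10 without mTEClo of males 4 weeks old, 11 without mTEChi of males 4 weeks old, and 15 to 21 without any of the other 4. The S count was 1 without mTEChi of males 4 weeks old or without mTEClo of males 4 or 5 weeks old. With age and sex as a replicate block, which left 1 degree of freedom to estimate the spread, 2 S and 8 G2/M members were called, where 1.83% of genes were called higher. The medians were then 2.12 (S) and 4.59 (G2/M), 0.07 over all genes, and 11 of 15 and 23 of 26 had an unadjusted p under 0.05 (12.1% of genes). Markers of other cells moved with the sort as well: the summed CPM of 15 thymocyte markers was 112.4 to 257.4 in the mTEChi pools and 37.4 to 102.6 in the mTEClo pools, that of 9 myeloid and B cell markers 112.7 to 497.2 and 5.60 to 18.6, that of 6 erythroid markers 17.4 to 26.9 and 3.66 to 7.19, and that of 11 stromal markers 66.96 to 355.8 and 58.8 to 216.5. All 4 mTEChi pools lay above all 3 mTEClo pools for 8 of 15, 7 of 9, 1 of 6 and 1 of 11 of these markers, and 1 marker, Hba-a2, was at 0 in every mTEClo pool. Without the cells that held reads of 8 or more thymocyte markers, 2 S and 21 G2/M members were called higher, as were 2930 of 39809 genes. Removal of all cells holding 10 or more thymocyte marker reads took away 84.2% of mTEChi and 49.3% of mTEClo. Then edgeR called no gene, and the medians were 0.34 (S) and 3.28 (G2/M) beside 0.06 over all genes. At an unadjusted p under 0.05, 2 of 15 S and 11 of 26 G2/M members were higher, as were 8.17% of genes. The part of the remaining markers in the difference was not tested.

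Cell cycle genes outside the 41 are read against the same 7.54% of all genes called higher and 4.13% called lower. Of 58 other mitosis genes 28 were called higher in adult mTEChi (48.3%), led by the kinetochore gene Ska1 (log2 difference 6.86), the cohesion factor Cdca5 (6.40) and the phosphatase Cdc25c (5.65), and 1 lower, Cdc25b (-1.25). Of 50 other replication genes 7 were called higher (14.0%), led by the checkpoint adaptor Clspn (6.16), the polymerase subunit Pole (4.88) and the origin factor Mcm10 (4.03), and 2 lower, Pold3 (-1.31) and Rfc1 (-1.08); 11 of 50 were higher at an unadjusted p under 0.05, a share near the 21.6% of all genes. Of 27 genes of G1 cyclins, their kinases and the E2F-Rb proteins 6 were called higher (22.2%, Mycn 4.60, E2f7 4.15 and Ccne1 2.78 the largest) and 1 lower (E2f6, -1.78). Of 8 inhibitors of cyclin-dependent kinases 1 was called higher (12.5%), Cdkn2b (1.52).

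Adult cTEC had a G2/M sum of 430.4 CPM and an S sum of 307.1 CPM, within the range of the mTEChi pools and above the mTEClo pools. With a single cTEC pool, whose spread is assumed to be that of the other groups, edgeR called no member in either comparison. In mTEChi against cTEC the median log2 differences were 0.55 (S) and 0.14 (G2/M), 0.49 over all genes, where 1.15% of genes were called higher and 1.7% lower. No member had an unadjusted p under 0.05, as had 10.2% of genes among the higher and 8.56% among the lower, and DESeq2 (9.01% and 3.44% of genes) and plates as units (3.45% and 5.1%) called no member. Without cells holding 10 or more thymocyte marker reads, which removed 51.9% of cTEC, these medians turned to -0.58 and -1.11 (0.30 over all genes), with no member called. In mTEClo against cTEC the medians were -0.91 and -3.64, 0.15 over all genes, and 4 of 15 S members and 25 of 26 G2/M members were lower at an unadjusted p under 0.05, as were 5.5% of genes; edgeR called 0.0149% of all genes higher and 0.0423% lower. DESeq2 called 1 S and 19 G2/M members lower there, of 1.67% of genes, and plates as units 2 and 15 (2.01% of genes). Without the mTEClo pool of males 8 weeks old edgeR called 1 and 8. Without cells holding 10 or more thymocyte marker reads the medians were -1.23 and -4.04, beside 0.27 over all genes. Then 0 and 14 members were lower at an unadjusted p under 0.05, as were 1.77% of genes. Mki67 read 74.96 CPM in cTEC and Kif18b 8.35 CPM. The cTEC pool had the highest thymocyte marker sum of the 13 pools (519.8 CPM); 10 of its 77 cells held reads of 8 or more thymocyte markers, and these were 3 of the 6 cTEC that carried most G2/M members.

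In Aire-KO cells edgeR called none of the 39971 genes tested against WT cells of the same sort, and so no member. The G2/M sum was 511.1 CPM in the Aire-KO mTEChi pool, inside the WT range of 312.5 to 977.4, but its plates differed: it was 139.7, 710.4, 181.7 and 1496.95 CPM on plates 7, 8, 13 and 14. Plates 7 and 13 lay below every adult WT mTEChi plate, the lowest of which read 312.5 CPM, and without plate 14 the sum was 283.9 CPM, below the WT pools. In Aire-KO mTEClo the G2/M sum was 95.1 CPM, above the WT mTEClo range of 37.8 to 44.8. Against WT mTEChi the medians were -0.77 (S) and -0.11 (G2/M) beside -0.16 over all genes, and no member had an unadjusted p under 0.05, as had 1.18% of genes among the higher and 3.19% among the lower. Without cells holding 10 or more thymocyte marker reads, which removed 78.1% of Aire-KO mTEChi, the direction turned. The medians were then 0.90 and 1.25 beside 0.02 over all genes. Against WT mTEClo the medians were 0.68 and 1.36 beside 0.00 over all genes, with 1 S and 2 G2/M members higher at an unadjusted p under 0.05 (2.14% of genes). Without the same cells they were 0.34 and 0.67, with no member at an unadjusted p under 0.05. DESeq2 called no member in either sort, where it called 0.0909% of genes higher and 1.55% lower in mTEChi and 0.192% higher and 0.395% lower in mTEClo. Plates as units called no member either, with 1.23% and 4.44% of genes in mTEChi and 0.203% and 0.0621% in mTEClo.

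**Figure D3:**
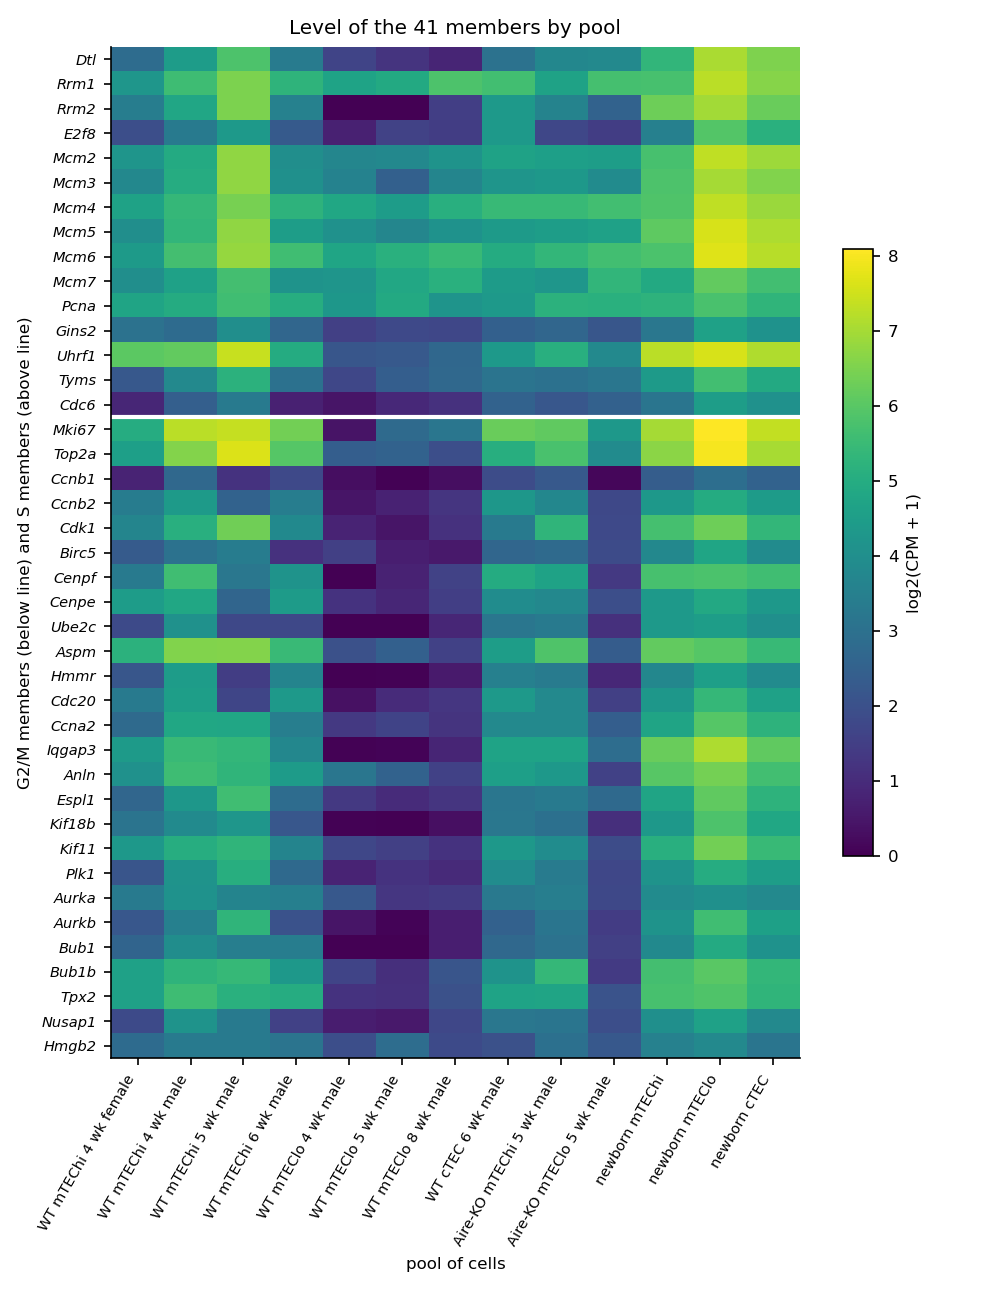
Level of each of the 41 members, log2(CPM + 1), in the 13 pools, with S members above the white line and G2/M members below it. As a class the G2/M members are lowest (darkest) in the 3 adult WT mTEClo pools. Of them 22, with all 15 S members, are highest in the newborn mTEClo pool.

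In newborns the S members were higher in mTEClo than in mTEChi, and the newborn mTEClo pool had the highest S sum and the highest G2/M sum of the 13 pools. Their S members summed to 1431.3, 1917.5, 1817.8, 2157 and 1159.8 CPM on plates 16 to 20, against 164.9 to 248.7 CPM in the adult mTEClo pools, and their G2/M members to 1669.07 CPM in the newborn pool against 37.8 to 44.8 CPM. Newborn mTEClo was the highest of the 13 pools for 15 of 15 S and 22 of 26 G2/M members, against 10.7% of genes, while an adult mTEClo pool was the lowest for 12 of 15 and 25 of 26, against 25.1% of genes. All 5 newborn mTEClo plates lay above all 5 adult mTEClo plates for each of the 41, against 14.6% of genes. Age and plate cannot be told apart there. The map of member levels shows this as the contrast between the adult and newborn mTEClo columns.

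The log2 differences between newborn and adult mTEClo had medians of 3.45 (S) and 5.28 (G2/M) beside a median of about 0 over all genes. They ran from 1.25 for Pcna to 7.39 for Rrm2 among S members and from 1.66 for Hmgb2 to 8.86 for Kif18b among G2/M members. Between these were Mcm2 (3.44), Mcm5 (3.60), Cdc6 (4.55), Uhrf1 (5.39) and Dtl (6.53) in S and Plk1 (4.89), Ccnb1 (5.19), Mki67 (5.69), Top2a (5.91) and Cdk1 (6.49) in G2/M. With 1 newborn pool, edgeR over pools called no gene, and the lowest adjusted p of a member was 0.0775. At an unadjusted p under 0.05, 14 of 15 S and 26 of 26 G2/M members were higher, as were 5.62% of genes. DESeq2 on the same pools called 10 and 24 (1.66% of genes), and a fit with plates as units called 15 and 26 (7.08% of genes). Without the adult mTEClo pool of males 8 weeks old edgeR called 2 and 12. The newborn plates hold cells of 1 pool and no adult cells, so plates as units do not replicate age. Newborn sex is unknown and no age between 1 day and 4 weeks was sampled.

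For mTEChi the newborn level lay within the range of the 4 adult pools for all 15 S members and 17 of 26 G2/M members. It lay above that range for the other 9: Iqgap3 (74.3 CPM against an adult maximum of 44.3), Anln (62.5 against 46.4), Cenpf, Ube2c, Birc5, Bub1b, Tpx2, Kif18b and Hmgb2. The share of all genes within or above that range was not counted, so these counts are a description only. Mki67 read 126.2 CPM in newborn mTEChi, inside the adult range of 31.4 to 166.8, and Cdk1 read 50.99 CPM within 11.8 to 79.2. Median log2 differences were 0.35 (S) and 0.56 (G2/M) beside -0.05 over all genes. Here edgeR called no gene. No member was called by DESeq2 (0.0269% of genes higher and 0.0558% lower) or with plates as units (0.913% and 0.873%). In edgeR no member had an unadjusted p under 0.05, as had 1.51% of genes among the higher and 0.503% among the lower. Without cells holding 10 or more thymocyte marker reads, which removed 90.6% of newborn mTEChi, the medians were 1.31 and -0.23, beside -0.19 over all genes. No member then had an unadjusted p under 0.05. The test of whether the newborn difference was larger in mTEClo than in mTEChi gave medians of 3.09 and 4.46 (0.01 over all genes), with 6 of 15 and 20 of 26 members at an unadjusted p under 0.05 (1.71% of genes). Again edgeR over pools called no gene. DESeq2 called 0 and 7 members (0.256% of genes), and plates as units called 13 and 26 (2.44% of genes). Without cells holding 10 or more thymocyte marker reads the medians were 1.902 and 5.93, beside 0.11 over all genes. Then 0 and 10 members were higher at an unadjusted p under 0.05, as were 1.03% of genes.

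The newborn sorts shared plates, so they were compared within plates. S members were lower in newborn mTEChi than in newborn mTEClo, by a median of 1.40 on the log2 scale, and 12 of 15 were called lower, where 12% of 23349 genes were called lower and 19.9% higher. Of the 26 G2/M members 3 were called lower, with a median of -0.80, and the median over all genes was 0.06. On all 5 plates mTEClo exceeded mTEChi for 13 of 15 S members and 7 of 26 G2/M members, against 28.5% of genes, so the count of G2/M members was close to that background. The G2/M sum was higher in mTEClo on 4 of 5 plates; on plate 20 it was 698.9 CPM in mTEChi and 637.9 CPM in mTEClo.

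Values by plate show how steady the S difference was. E2f8, a repressor of the E2F family that is itself made in S phase, read 13.8, 16.0, 8.76, 9.45 and 2.15 CPM in mTEChi on plates 16 to 20 and 32.7, 67.3, 62.6, 84.96 and 35.6 CPM in mTEClo. Mcm6 read 81.2, 54.8, 31.7, 60.4 and 27.01 CPM in mTEChi and 180.9, 220.1, 209.3, 255.95 and 155.8 CPM in mTEClo. Dtl read 55.8, 43.7, 22.9, 49.8 and 11.7 CPM against 140.2, 162.7, 129.2, 149.2 and 90.4 CPM. For each of these 3 the highest mTEChi plate lay below the lowest mTEClo plate. Their log2 differences were -2.59 (SE 0.39, adjusted p = 0.000401), -1.999 (SE 0.25, adjusted p = 0.000134) and -1.94 (SE 0.26, adjusted p = 0.000189).

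The 3 S members not called were Uhrf1, Rrm2 and Pcna. Uhrf1 read 184.9, 145.3, 121.97, 171.2 and 107.2 CPM in mTEChi and 158.8, 220.2, 204.9, 236.2 and 123.4 CPM in mTEClo, which overlap (log2 difference -0.24, SE 0.26, adjusted p = 0.469). Rrm2 was not called either (-0.47, SE 0.29, adjusted p = 0.196), and Pcna passed the test but not the 2-fold limit (-0.52, SE 0.13, adjusted p = 0.00794). Mcm2 (-1.72, SE 0.31, adjusted p = 0.00126), Mcm5 (-1.64, SE 0.31, adjusted p = 0.00152) and Cdc6 (-1.65, SE 0.30, adjusted p = 0.00119) were called lower, as were Mcm3, Mcm4, Mcm7, Rrm1, Gins2 of the helicase complex and the thymidylate synthase gene Tyms. Every subunit of the helicase ring, Mcm2 to Mcm7, was among the 12.

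The called G2/M members were Top2a, Kif18b and Cdc20. Top2a read 142.2, 137.9, 72.8, 80.7 and 51.9 CPM in mTEChi and 150.7, 251.9, 372.8 and 372.7 and 110.9 CPM in mTEClo, a log2 difference of -1.33 (SE 0.41, adjusted p = 0.0212). Kif18b read 19.0, 30.1, 16.7, 12.6 and 15.2 CPM against 51.7, 50.5, 83.6, 84.9 and 17.9 CPM (-1.53, SE 0.52, adjusted p = 0.0327). Both were higher in mTEClo on each plate, with ranges that overlapped between plates. Cdc20 differed by less (-1.30, SE 0.41, adjusted p = 0.0235). Mki67 (-1.03, SE 0.44, adjusted p = 0.0723), Plk1 (-0.91, SE 0.69, adjusted p = 0.295), Ccnb1 (-0.67, SE 0.77, adjusted p = 0.4932) and Cdk1 (-0.48, SE 0.40, adjusted p = 0.348) were not called. No G2/M member was called when plate 18 was left out, and 2 to 5 when another was, whereas 12 S members were called whichever of the 5 plates was left out. Thymocyte marker sums were 177.9 CPM in newborn mTEChi, 38.4 in mTEClo and 158.3 in cTEC, and all 15 markers were higher in the mTEChi than the mTEClo pool; without cells holding 10 or more thymocyte marker reads, 3 S and 3 G2/M members were called, with medians of -2.32 and -3.32.

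Newborn cTEC lay between the medullary sorts in the S members, with a mean S sum over plates of 1206.4 CPM against 689.4 in mTEChi and 1696.7 in mTEClo. Their mean G2/M sum, 886.9 CPM, was the lowest of the 3, beside 917.9 in mTEChi and 1730.1 in mTEClo. Against cTEC, 7 of 15 S members were called lower in mTEChi (13.3% of genes), namely E2f8 (log2 difference -1.84, SE 0.37, adjusted p = 0.00214), Mcm6 (-1.56, SE 0.25, adjusted p = 0.000457), Dtl (-1.37, SE 0.25, adjusted p = 0.00118), Mcm2, Mcm4, Mcm5 and Cdc6, with a median of -0.90. No G2/M member was called by edgeR or had an unadjusted p under 0.05, while DESeq2 called 1 higher, Aspm (17.7% of genes). The G2/M median was 0.24, and without cells holding 10 or more thymocyte marker reads it was -0.64, with 1 S member called and an S median of -1.49. The median over all genes was then -0.13. In that fit 2 of 15 S members (13.3%) were lower at an unadjusted p under 0.05, against 18.4% of all genes, so their share was not above that background. cTEC exceeded mTEChi on all 5 plates for 10 of 15 S and 0 of 26 G2/M members (27.4% of genes). The S count was 4 without plate 17 and up to 9 without another plate. Between newborn mTEClo and cTEC no member was called by edgeR (1.66% of genes were called higher and 2% lower), although 41 of 41 differences were positive, with medians of 0.48 (S) and 0.95 (G2/M), and 2 S and 6 G2/M members had an unadjusted p under 0.05 (10.5% of genes). Without cells holding 10 or more thymocyte marker reads the medians were 0.91 and 2.78, and 3 S and 23 G2/M members had an unadjusted p under 0.05 (7.09% of genes), with none called. DESeq2 on all cells called 0 and 2, Cdc20 and Kif18b (2.77% of genes). mTEClo exceeded cTEC on all 5 plates for 0 of 15 S and 6 of 26 G2/M members, against 16.4% of genes.

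The other newborn lists are read against 12% of all genes called lower and 19.9% called higher in mTEChi than in mTEClo. Of the replication genes 24 of 50 were called lower (Gins1 -2.17, Chaf1b -2.06 and Pola1 -1.98 the largest) and of the mitosis genes 16 of 58 (27.6%, Ska1 -1.82, Lmnb1 -1.82 and Spag5 -1.80). Of the kinase inhibitors 3 of 8 (37.5%) were called higher in mTEChi, Cdkn2a (2.97), Cdkn2b (2.78) and Cdkn1a (1.99), and Cdkn2c was called lower (-1.04). Of the G1 and E2F-Rb genes 7 of 27 (25.9%) were called lower, with Foxm1 (-1.78), the factor that binds CHR promoters in G2, first among them, then E2f6 (-1.76) and E2f7 (-1.73), and 1 was called higher, E2f2 (1.22).

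The balance of the classes was read as the ratio of their reads. Per read of a G2/M member there were 0.784, 0.494, 1.13 and 0.663 reads of S members in the adult mTEChi pools, and 4.36, 4.47 and 5.56 in the adult mTEClo pools. The ranges did not overlap; the means were 0.767 ± 0.267 (SD, n = 4) and 4.80 ± 0.659 (SD, n = 3), with a two-sided exact permutation p of 0.0571, the smallest that 4 against 3 allows (0.188 adjusted over 12 tests of shares and ratios). The ratio was 0.714 in adult cTEC, 0.587 in Aire-KO mTEChi and 3.48 in Aire-KO mTEClo. On the newborn plates it was 0.750 ± 0.194 in mTEChi, 1.13 ± 0.436 in mTEClo and 2.00 ± 1.88 in cTEC (SD, n = 5), where plate 19 alone read 5.28. The exact sign-flip test over plates, whose smallest p is 0.0625, gave p = 0.25 for mTEChi against mTEClo, 0.125 for mTEChi against cTEC and 0.5625 for mTEClo against cTEC.

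Levels of different genes can be set side by side per length only. In CPM per kilobase of exon, the highest members of the adult mTEChi pool of males 4 weeks old were Uhrf1 (16.3), Mki67 (15.2) and Ccnb2 (13.2), and the lowest Cdc6 (0.85) and Ccnb1 (1.35). In newborn mTEClo the highest were Mcm5 (48.5), Uhrf1 (45.1), Rrm2 (44.7) and Mcm6 (44.5). In adult mTEClo of males 8 weeks old Mcm4 (9.33) and Mcm6 (9.24) led and Ccnb1 was lowest (0.05). Pcna led in the other adult WT mTEClo pools, at 7.76 in males 4 weeks old and 12.2 in males 5 weeks old. Next in these were Mcm4 (7.54) and Mcm6 (7.32).

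Single cells showed whether many or few cells carried the messages. Each cell was thinned to 200000 reads so that depth did not set detection. Mki67 then had a read in 55.6% of adult mTEChi, 31.4% of adult mTEClo and 66.7%, 76.6% and 69.1% of newborn mTEChi, mTEClo and cTEC. Cdk1 was found in 45.6%, 12.9%, 54.97%, 62.9% and 46.04% of the same groups, Uhrf1 in 64.7%, 28.01%, 91.2%, 91.1% and 85.6%, and Dtl in 20.2%, 5.88%, 38.6%, 74.2% and 69.8%. A read of Pcna was nearly general, in 87.1% to 98.4% of cells. Reads of single members were thus spread over more cells than reads of many: the median adult mTEChi had a read of 6 of the 26 G2/M members, and the median adult mTEClo of 2.

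A cell was therefore said to lie in the G2/M range when it had a read of at least 13 of the 26 G2/M members after thinning, and in the S range with at least 8 of the 15 S members. This is a range and not a cell type: 82 adult mTEChi had 10 to 15 G2/M members, close to the limit, and the median adult mTEChi had 7 of the 15 S members. The G2/M range held 3, 58, 1 and 4 cells of the adult mTEChi pools (3.66%, 13.1%, 8.33% and 4.88%) and 0 of 66, 0 of 74 and 6 cells of the mTEClo pools (0, which allows up to 4.55%, 0, which allows up to 4.05%, and 2.76%). Each mTEChi pool had a larger share than each mTEClo pool. The pool means were 7.48% ± 4.21 (SD, n = 4) and 0.922% ± 1.60 (SD, n = 3), with an exact permutation p of 0.0571, the smallest possible (adjusted 0.188).

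Over whole groups the G2/M range held 66 adult mTEChi (10.6%, 95% exact binomial interval 8.33 to 13.3), 6 mTEClo (1.68%, 0.619 to 3.62) and 6 of 77 cTEC (7.79%, 2.91 to 16.2); the intervals cover counting error only. The 6 mTEClo all came from plate 32. In Aire-KO cells it held 25 mTEChi (7.40%, 4.84 to 10.7), of which 21 came from plate 14 (25.0% of its cells, and 1.57% of the cells on the other 3 plates), and 1 mTEClo (0.649%, 0.0164 to 3.56). In newborns it held 43 mTEChi (25.1%), 45 mTEClo (36.3%) and 37 cTEC (26.6%). By plate the newborn shares were 25.0% ± 9.86, 35.1% ± 15.1 and 26.4% ± 15.2 (SD, n = 5), which overlap for each pair of sorts (exact sign-flip p = 0.125, 0.75 and 0.375 for mTEChi against mTEClo, mTEChi against cTEC and mTEClo against cTEC).

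The S range was wider, and in newborn mTEClo and cTEC nearly general. It held 41.3% of adult mTEChi, 24.9% of adult mTEClo, 58.4% of adult cTEC, 27.5% and 35.1% of Aire-KO mTEChi and mTEClo, and 72.5%, 97.6% and 93.5% of newborn mTEChi, mTEClo and cTEC. Pool shares were 45.1%, 41.9%, 41.7% and 34.1% for adult mTEChi and 7.58%, 9.46% and 35.5% for adult mTEClo, so the mTEClo of males 8 weeks old overlapped with mTEChi (exact permutation p = 0.114). On newborn plates the shares were 72.1% ± 6.52, 97.9% ± 3.08 and 92.9% ± 5.74 (SD, n = 5); mTEChi was the lowest on every plate, with exact p = 0.0625 against either sort, the smallest that 5 plates allow (adjusted 0.188).

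**Figure D4:**
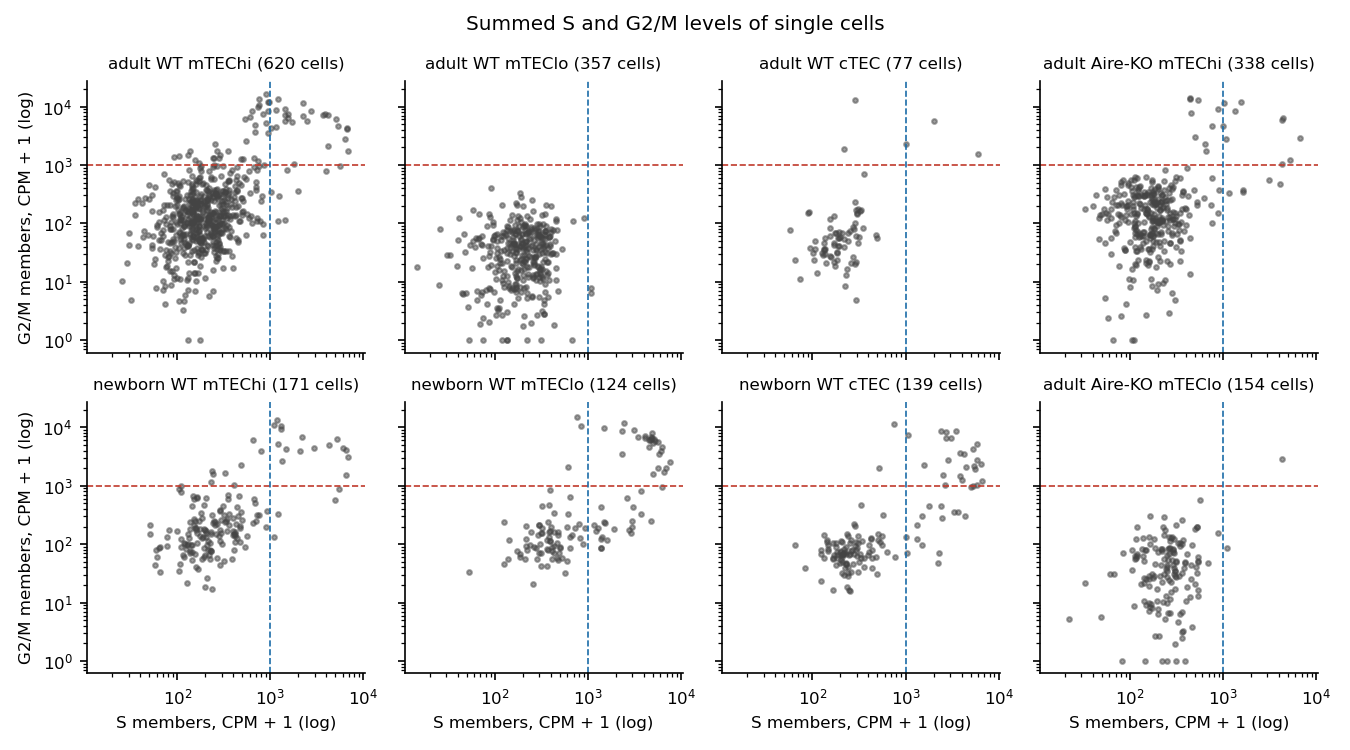
Summed CPM of S members against summed CPM of G2/M members in each cell (both plus 1, log axes), 1 panel per group, with dashed lines at 1000 CPM. No adult WT mTEClo reached 1000 CPM of G2/M members, against 58 adult WT mTEChi (9.35%) and 30 newborn mTEClo (24.2%).

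Another measure asked which cells carried a summed level of at least 1000 CPM, a limit chosen after the data were seen. For G2/M members 58 adult mTEChi (9.35%) did so, and 0 adult mTEClo, whose highest cell read 407.9 CPM and whose share has an upper 95% limit of 1.03%. The 6 adult mTEClo in the G2/M range thus held reads of many G2/M members at low summed levels. Adult cTEC had 5 such cells (6.49%), Aire-KO mTEChi 19 (5.62%) and Aire-KO mTEClo 1 (0.649%). In newborns there were 24 mTEChi (14.04%), 30 mTEClo (24.2%) and 26 cTEC (18.7%). Of these cells 44 of the 58 adult mTEChi and 19 of the 24 newborn mTEChi lay in the G2/M range, so the measures differ. For S members 33 adult mTEChi (5.32%) and 2 adult mTEClo (0.56%) reached 1000 CPM. So did 20 newborn mTEChi (11.7%), 49 newborn mTEClo (39.5%) and 39 newborn cTEC (28.1%).

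The plot of S against G2/M sums per cell also shows how many cells reached the limit for both classes. Of the adult mTEChi 25 reached 1000 CPM of both classes, 8 of S members alone and 33 of G2/M members alone. Of the newborn mTEClo 27 reached both, 22 S alone and 3 G2/M alone, and of the newborn cTEC 24, 15 and 2. Newborn mTEChi had 16, 4 and 8. This split was not tested.

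**Figure D5:**
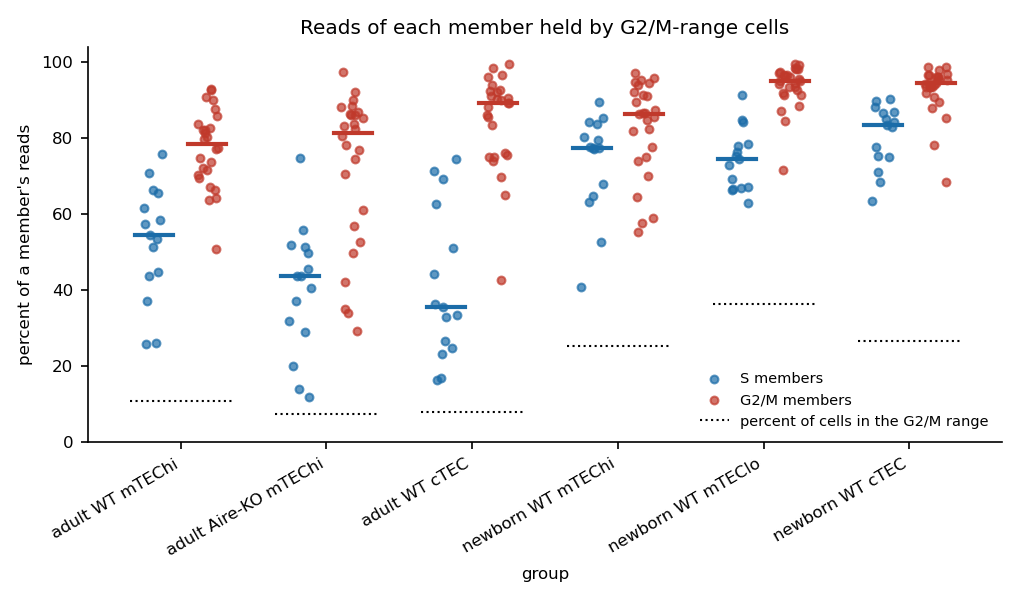
Share of each member's reads that came from G2/M-range cells, in percent, for 6 groups, with S members in blue, G2/M members in red, bars at the medians and a dotted line at the percent of cells in the range. In adult mTEChi, where 10.6% of cells were in the range, they held 76.5% of all G2/M reads and 51.2% of all S reads.

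In adult mTEChi the messages were concentrated in few cells. The 10.6% of cells in the G2/M range held 76.5% of the reads of G2/M members and 51.2% of those of S members; since the G2/M members chose these cells, the first value is a description. Among S members the share ran from 25.7% for Gins2 to 75.8% for Rrm2, and among G2/M members from 50.8% for Hmgb2 to 93.02% for Ccna2. In newborn mTEChi, mTEClo and cTEC the range cells held 73.9%, 73.7% and 79.9% of the S reads, with Pcna lowest (40.7%, 62.9% and 63.5%) and Rrm2 highest (89.5%, 91.3% and 90.4%). In adult mTEClo they held 3.86% of G2/M and 1.24% of S reads, and their summed G2/M level was 167.3 CPM, where it was 4911 CPM in adult mTEChi, 4391 in adult cTEC, 5166 in Aire-KO mTEChi and 2783, 4241 and 3071 in newborn mTEChi, mTEClo and cTEC.

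Outside the G2/M range the newborn sorts kept an order in S members. Among those cells the S members summed to 257.4 ± 22.01 CPM in newborn mTEChi, 345.4 ± 61.5 in cTEC and 736.8 ± 138.9 in mTEClo (SD, n = 5 plates), in that order on every plate, with an exact sign-flip p of 0.0625 for each pair, the smallest possible. In adults the S sums outside the range were 202.5 to 233.6 CPM in the mTEChi pools and 164.9 to 248.3 CPM in the mTEClo pools, which overlap. The G2/M sums there were 216.6, 209.8, 206.2 and 178.6 CPM in the mTEChi pools and 37.8, 41.6 and 42.4 CPM in the mTEClo pools; as the range removes cells by these genes, this is a description.

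Other genes of the cells in the range were read beside the rest of their group. The adult mTEChi pools held 3, 58, 1 and 4 range cells, so values over the group come mostly from 1 pool. In the other pools the order rests on few cells. The share of all genes with the same order was not counted, so the counts below are a description. Of the 8 inhibitors of cyclin-dependent kinases 4 were lower in the range cells in all 4 adult mTEChi pools, Cdkn1a (58.7 against 156.1 CPM over the group), Cdkn1c (11.4 against 54.2), Cdkn2b (35.4 against 82.9) and Cdkn2a (7.56 against 9.27). The other 4 were higher in them over the group: Cdkn3 (10.6 against 0.94, in 4 of 4 pools), Cdkn2c (47.03 against 18.3, 3 of 4), Cdkn2d (13.6 against 6.68, 3 of 4) and Cdkn1b (150.7 against 103.9, 2 of 4). Of the 27 G1 and E2F-Rb genes 17 were higher in all 4 pools, among them Ccnd1 (92.8 against 28.6), Ccnd2 (1117.6 against 476.6), Cdk4 (245.9 against 55.8) and Foxm1 (77.02 against 5.20), and 1 was lower in all 4, Ccnd3 (31.6 against 37.8). The medullary keratin Krt5 was higher in them (248.5 against 76.1 CPM, 4 of 4 pools). Krt5 is a single gene and does not stand for the medullary genes as a set. Apart from Aire, which went the other way, the others are not given here, nor are the newborn levels of Krt5. Aire was 1080.5 CPM in the range cells and 1208.7 in the others, lower in 4 of 4 pools. In newborn mTEClo Aire was 15.5 against 128.3 CPM, lower on 5 of 5 plates. In newborn mTEChi it was 1465.99 against 1470.5 CPM (higher on 3 of 5 plates) and in newborn cTEC 76.8 against 50.1 CPM (higher on 4 of 5). In newborn cTEC the cortical genes Psmb11 (496.001 against 1093.2 CPM) and Prss16 (996.7 against 2225 CPM) were lower on 5 of 5 plates.

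Across cells the G2/M members kept together more closely than the S members. The median Pearson correlation of log2(CPM + 1) was 0.51 over pairs of G2/M members, 0.30 over pairs of S members and 0.29 over pairs between classes; cells share plates and depth, so these are descriptions. Other protein-coding genes were correlated over all cells with the mean of the members of a class. Here log2(CPM + 1) was first centred on the mean of the cell's group. Most like the G2/M mean were Pbk (r = 0.85), Kif14 (0.81), Knl1 (0.80), Cep55 (0.80), Ska1 (0.79), Cdca8 (0.79), Pimreg (0.78), Dlgap5 (0.78), Ndc80 (0.77) and Nuf2 (0.77). Those most like the S mean were Lrr1 (0.71), Exo1 (0.68), Pbk (0.67), Ticrr (0.66), Fignl1 (0.63), Ercc6l (0.63), Cenph (0.63), Neil3 (0.62), Esco2 (0.62) and Ndc80 (0.62).

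Some members overlap other genes, and how reads in an overlap were counted is not stated in the sources used. Counting was without regard to strand, so reads of Cdc20 and Elovl1, Mcm7 and Cops6, Ube2c and Tnnc2, Ccna2 and Exosc9, and Nusap1 and Oip5, whose exons overlap on opposite strands, cannot be told apart there. Pcna, Tyms, Ccnb1 and Ccnb2 have annotated pseudogenes of the same name, which makes their counts uncertain. Per length, Ccnb1 was lowest or near lowest in newborn mTEClo, in adult mTEChi of males 4 weeks old and in adult mTEClo of males 8 weeks old.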

How the data were processed

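The 1980 TECs comprised 620 adult WT mTEChi, 357 mTEClo and 77 cTEC, 338 Aire-KO mTEChi and 154 mTEClo, and 171 newborn mTEChi, 124 mTEClo and 139 cTEC; pools of adult WT mTEChi held 82, 444, 12 and 82 cells and those of mTEClo 66, 74 and 217, in the order used in the text. Cells were read by RamDA-seq, and the authors trimmed the reads with fastp 0.20.0, aligned them to mm10 with STAR 2.7.3a, removed low-quality alignments with SAMtools 1.9 and duplicates with Picard 2.21.1, and deposited whole read counts per gene from HTSeq 0.11.2, counted without strand. Removing duplicates lowers the counts of abundant messages most. The deposited normalised table was not used, and how repeat runs of a cell were combined is not given in the sources used here. Names and positions were taken from GENCODE M21 (GRCm38).

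The members and gene lists were chosen with earlier results of these data known. Counts were summed by group, age and sex (13 pools) or by newborn plate and tested with the quasi-likelihood test of edgeR 4.0.16 in R 4.3.3 (TMM scaling, low counts filtered, Benjamini-Hochberg adjustment; called at an adjusted p under 0.05 and at least 2-fold). mTEC contrasts used 11 pools, cTEC contrasts 13, and newborn sorts a plate term. The newborn sorts share plates by the labels; deviations of same-plate sums over 11638 genes correlated at -0.12 to 0.23. The tests were run on simulated data first. Full statistics were given for Mki67, Top2a, Ccnb1, Cdk1, Plk1, Mcm2, Mcm5, Pcna, Rrm2, Cdc6 and the 3 largest called differences in each direction; Cdc20, Uhrf1, Dtl, Mcm6, Rrm1, Aspm and members not called were added after their values were seen. Shares and ratios were compared by two-sided exact permutation over pools or sign flips over plates (SciPy 1.17.1). CPM is per 1000000 counted reads, so a fold change is relative to the other genes of the same sum. Alternatives were DESeq2 1.42.0, limma 3.58.1 with equal weight per cell, no TMM, no filter, plates as units, left-out pools or plates, removal of cells with thymocyte reads, and other limits of the ranges.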

Additional observations from a re-analysis of the deposited data

Results flagged for a closer look

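In 75 groups of 4 to 10 plates or pools, 5 held a value that stood apart from the others of its group, and chance alone gives about 1 in 20. On plate 32 of adult WT mTEClo 7.79% of cells were in the G2/M range, while the other mTEClo plates had 0. On plate 14 of Aire-KO mTEChi the share was 25.0%, and 0 to 3.49% on the other plates of that group. The ratio of S to G2/M reads was 5.28 on newborn cTEC plate 19 and 0.721 to 1.81 on the other newborn cTEC plates. Mcm2 read 108.005 CPM in the adult mTEChi pool of males 5 weeks old, which holds 12 cells, and 14.98 to 29.6 CPM in the other adult mTEChi pools. Rrm2 read 172.6 CPM in newborn cTEC of plate 17 and 37.7 to 72.04 CPM on the other plates. The cause of none of these was tested.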

How the results depend on the processing

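No result changed direction where it was called: under the alternatives 38 counts of called members moved by over 1.5 times and 21 shares or ratios by more than the spread between replicates, as given here, and the others by less. Single members stayed on their side of the threshold in 5605 of 5986 fits, which include members that were of opposite sign and called in neither fit. DESeq2, limma with equal weight per cell, and plates as units called 6, 4 and 10 S members higher in adult mTEChi than mTEClo, and for newborn against adult mTEClo 10, 5 and 15 S and 24, 10 and 26 G2/M members. For the difference between those newborn effects, DESeq2 called 7 G2/M members and plates as units called 13 S and 26 G2/M members. For adult mTEClo against cTEC DESeq2 called 1 S and 19 G2/M members, and plates as units 2 and 15. In newborns DESeq2 called 7 G2/M members for mTEChi against mTEClo (8 with no TMM), 1 against cTEC, and 2 for mTEClo against cTEC. Without cells of 10 or more thymocyte reads the adult counts were 0 S and 0 G2/M, and the newborn S counts 3 (mTEChi against mTEClo) and 1 (against cTEC). With pool age and sex as a replicate block, 8 G2/M members were called in adults; without the plate as a replicate block 12, 7 and 0 S and 4, 0 and 0 G2/M members were called in the 3 newborn comparisons, and the block changed no other count by over 1.5 times.

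Leaving out 1 pool gave 1 to 3 S and 8 to 21 G2/M members in adult mTEChi against mTEClo, 0 to 2 and 0 to 12 in newborn against adult mTEClo, and 0 to 1 and 0 to 8 in adult mTEClo against cTEC. Leaving out 1 newborn plate gave 12 S and 0 to 5 G2/M members for mTEChi against mTEClo and 4 to 9 S members against cTEC. The other comparisons gave 0 throughout.

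The adult difference in the G2/M-range share, 6.56 percentage points, was 15.9 in unthinned cells and 15.3 with a limit of 9 of 26 members. The newborn difference between mTEChi and mTEClo was -30.6, and that between mTEClo and cTEC 25.5, without cells of 10 or more thymocyte reads. That filter removed 90.6% of newborn mTEChi, 51.6% of mTEClo and 50.4% of cTEC. The adult S-range difference was 39.5 unthinned, 6.08 with a limit of 12 members and 3.97 at 1000 CPM. For newborn mTEChi minus mTEClo it was -8.70 unthinned, -52.6 counting members with 5 or more reads, and -2.34, -44.2 and -40.5 with limits of 5, 10 and 12 members; minus cTEC it was -7.71, -38.8, -2.34, -28.1 and -29.2. For mTEClo minus cTEC it was 13.9 with 5 or more reads and 16.2 and 11.3 with limits of 10 and 12. The newborn ratio difference of mTEChi minus mTEClo was 1.00 without cells of 10 or more thymocyte reads, and negative with all cells. The cause of these moves was not tested. Left-out replicates gave ranges of 4.70 to 7.84 (adult G2/M share), -12.6 to -6.77, -3.04 to 0.859 and 3.73 to 12.1 (newborn pairs in the order above), 18.2 to 32.2, -27.2 to -23.7, -22.8 to -18.3 and 3.97 to 6.24 (S share), and -4.25 to -3.65, -0.496 to -0.167, -1.60 to -0.492 and -1.28 to 0.00425 (ratio). The limits of 8 thymocyte markers, of 20 and 12 members and of 1000 CPM, and the removal of single Aire-KO plates, were chosen after the data were seen. Depth limits single cells: at 200000 reads a member with few messages is often missed, and adult mTEClo levels near 0 rest on few reads.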
